A study of Bos taurus with 6 samples.

Results

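The EGF-like growth factors and their ERBB receptors were described in bovine granulosa cells (GC) cultured at different plating densities. Of 10 gene symbols listed for this family, 8 matched a symbol of the deposited array table exactly, each by 1 of its 26773 transcript clusters, the array's unit for a gene. These were the ligands EREG, HBEGF, TGFA, BTC and NRG1 and the receptors EGFR, ERBB3 and ERBB4. AREG was read from the transcript cluster with the older symbol AREGB, whose mRNA accession belongs to AREG in RefSeq, and is given beside the exact matches. ERBB2 was not analysed here.

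The arrays held RNA from 6 cultures of primary Bos taurus GC, 3 plated at normal density with 100000 cells per well and 3 at high density with 1000000 cells per well. All cultures were kept without serum for 9 days on collagen with androstenedione (2 μM), FSH (20 ng/ml) and IGF-1 (50 ng/ml), and no LH was added. The cells were frozen pools aspirated from small to medium follicles of abattoir ovaries, so cows of unknown cycle stage were mixed. Which pool went into which culture is not given in the sources used here, and the p-values measure the spread between these cultures.

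Ligands of the EGF family are made as membrane-bound precursors and are released by shedding proteases such as ADAM17. AREG, TGFA, BTC, HBEGF and EREG bind EGFR, and BTC, HBEGF and EREG also bind ERBB4, whereas NRG1 binds ERBB3 and ERBB4. ERBB3 has little kinase activity of its own and signals through its dimer partner. In the preovulatory follicle the LH surge is known to induce AREG, EREG and BTC in mural GC, and these ligands carry the signal on to the cumulus cells through EGFR and ERK.

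Values are log2 signals made by the authors with the RMA procedure. They are compared only within a transcript cluster, since probes of different genes differ in brightness. A signal of 4.62 served as background level, below which 95% of the signals of the 82 reporter control rows lay. A log2 fold change is the mean at high density minus that at normal density, given with its standard error (SE), and was tested with limma, the p being adjusted over the whole table. Transcript clusters are termed called if their fold change exceeds 1.5 in size and their adjusted p is below 0.05. In bulk RNA, fewer cells of a type and less RNA per cell cannot be told apart.

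The array medians ranged from 4.34 to 4.43. High density replicate 2 stood apart from the other cultures of its density, with distances over all transcript clusters of 47.5 and 45.0 from them against 35.3 between those, and without it the calls in the whole table rose from 2005 to 2434. Of 8 GC markers, all were above background in at least one density. At high density 6 of them were called, 5 as falls and HSD17B1 as a rise. That is 75% of these markers, against 7.49% of all transcript clusters. The mean signal of the GC markers per culture was between 6.99 and 7.24 at normal density and between 6.0 and 6.12 at high density. CYP19A1, the aromatase that defines estradiol-producing GC, was above background in all normal density cultures and in 0 of 3 high density cultures. All 7 leukocyte and all 6 oocyte markers and 6 of 7 endothelial markers had both group means below background, VWF being the exception with 5.39 and 5.70. Their mean signals per culture lay between 2.89 and 3.03, 2.40 and 2.46, and 2.94 and 3.03 at normal density and between 2.93 and 3.05, 2.36 and 2.51, and 3.06 and 3.10 at high density for leukocyte, oocyte and endothelial markers. Among 5 theca markers CYP17A1 stayed below background at 2.93 and 2.92, and the other 4 were above it at both densities. LUM with 11.64 and 11.65, DCN with 10.68 and 10.86 and NR2F2 with 6.47 and 6.40 were not called, while INSL3 rose from 7.20 to 9.02. The mean signal of that list was between 7.72 and 7.83 at normal density and between 8.13 and 8.22 at high density, with a median log2 fold change of 0.01. Among 6 surface epithelium markers 4 were below background, MSLN was measured at 5.61 and 5.75, and UPK1B rose from 9.46 to 10.08. The mean signal of that list was between 4.74 and 4.82 at normal density and between 4.98 and 5.08 at high density. The part of these marker shifts in the results below was not tested.

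Of the 8 exactly matched members, 3 were called, which is 37.5% of them against 7.49% of all transcript clusters, or 33.3% with AREG counted. Both group means were at or below background for 51.2% of all transcript clusters and for 2 of the 8 members. The shares over the table given here include those transcript clusters. When only transcript clusters with a group mean above background were tested, 1695 were called, the same 3 members among them. EREG and HBEGF were up-regulated at high density, in a table where 3.97% of the transcript clusters were called in that direction. NRG1 was down-regulated, as were 3.51% of all, and the study had already listed it among the top falls of these same arrays. All called members were ligands, and none of the 3 measured receptors passed both thresholds. The groups did not overlap for 5 of the 8 members, or 62.5%, against 37.3% of all transcript clusters. The median log2 fold change was 0.20 over the 8 members and 0.02 over the table, and its median size was 0.39 and 0.15, respectively. With AREG counted, the groups did not overlap for 55.6% of the members and the median size was 0.25.

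**Figure D1:**
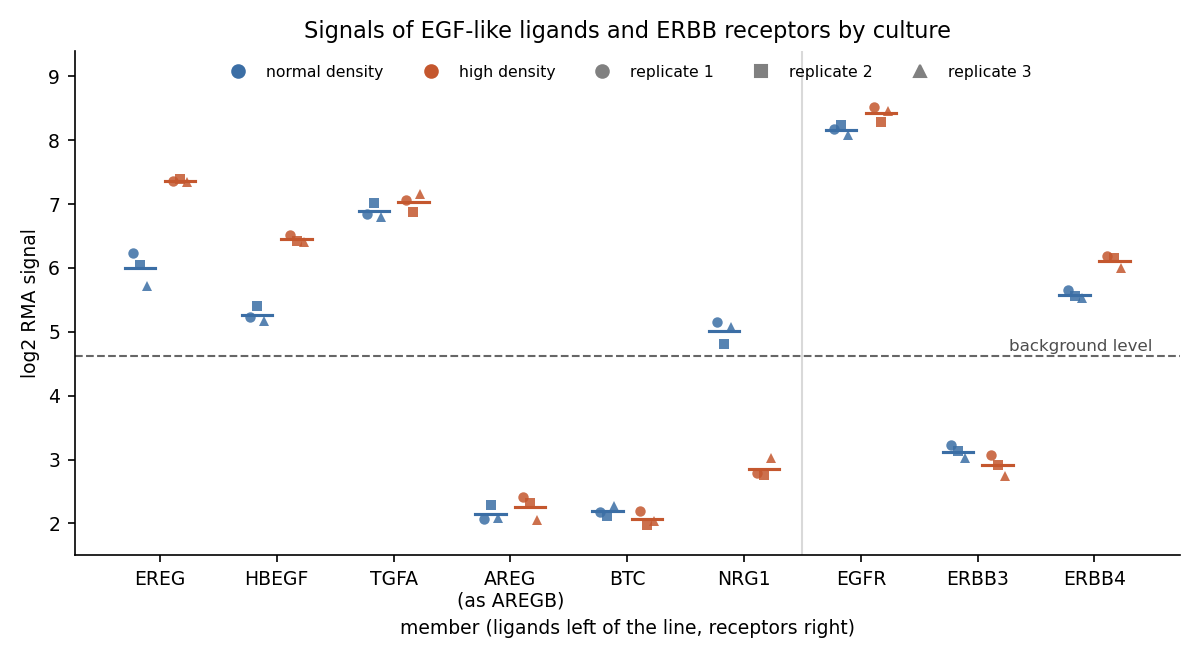
Log2 RMA signals (vertical axis) of each member in the 6 cultures, with normal density in blue, high density in orange, a marker shape per replicate number, a bar at the group mean and the background level of 4.62 as a dashed line. EREG and HBEGF lie higher in all high density cultures, NRG1 drops from just above to well below the dashed line, and AREG, BTC and ERBB3 stay below it throughout.

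EREG encodes epiregulin, a ligand of EGFR and ERBB4 that is typical of the periovulatory follicle. Its log2 signals (transcript cluster 12869555) were 6.23, 6.04 and 5.71 in the normal density cultures and 7.36, 7.39 and 7.35 in the high density cultures. All high density cultures were above all normal density cultures, and the gap of 1.13 between the groups exceeded the range of 0.52 among the normal density cultures. The high density cultures were nearly equal, with an SD of 0.02 against 0.26 at normal density (n = 3 each). The log2 fold change was 1.37 (SE 0.13, 95% CI 1.07 to 1.67, limma's adjusted p = 4.53e-04), a 2.59-fold rise. EREG ranked 213 among the 1064 called rises of the table. The normal density culture with the lowest signal, replicate 3, moved the estimate most, and without it the log2 fold change was 1.23. EREG was not called when each transcript cluster was tested on its own with a separate variance per density (adjusted p = 0.0988).

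HBEGF encodes heparin-binding EGF-like growth factor, which also acts from the cell surface as a membrane-anchored ligand. The signals of its transcript cluster (12885817) were 5.23, 5.4 and 5.17 at normal density and 6.52, 6.42 and 6.40 at high density. The groups were separated by 1.01, well beyond their own ranges of 0.22 and 0.12. With a log2 fold change of 1.18 (SE 0.08, 95% CI 0.98 to 1.38, limma's adjusted p = 1.40e-04), HBEGF rose 2.27-fold. It ranked 299 among the called rises. The 95% CIs of EREG and HBEGF overlapped, and a difference between their changes was not tested.

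NRG1 encodes neuregulin 1, whose isoforms bind ERBB3 and ERBB4 and not EGFR. Its signals (12823470) were 5.15, 4.81 and 5.07 at normal density, which is above the background level in every culture, and 2.79, 2.75 and 3.03 at high density, which is below it in every culture. The high density cultures lay 1.77 below the lowest normal density culture. Measured as deposited, NRG1 fell by 2.15 on the log2 scale (SE 0.12, 95% CI −2.43 to −1.87, limma's adjusted p = 4.80e-05). Because the high density signals were not above background, only a bound is certain, and against the background level NRG1 was at least 1.31-fold lower at high density. With the 99th percentile of the control rows, 4.92, as background level, 2 of 3 normal density cultures were above it and the bound was 1.06-fold. A single transcript cluster does not tell the NRG1 isoforms apart.

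TGFA, the EGFR ligand transforming growth factor alpha, was above background in all cultures. Its signals (12702269) were 6.85, 7.01 and 6.79 at normal density and 7.07, 6.88 and 7.16 at high density. The groups overlapped, with high density replicate 2 inside the normal density range. The log2 fold change of 0.16 had a 95% CI from −0.08 to 0.39 (limma's adjusted p = 0.334), so a change of 1.5-fold in either direction lay outside the interval. Without high density replicate 2 the log2 fold change was 0.23 and the adjusted p 0.0946.

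AREG encodes amphiregulin, the ligand most often measured beside EREG after the LH surge. Its transcript cluster (12872030, AREGB in the table) had signals of 2.07, 2.29 and 2.09 at normal density and 2.41, 2.32 and 2.05 at high density. BTC, betacellulin, a ligand of EGFR and ERBB4, had signals (12873141) of 2.18, 2.11 and 2.27 at normal density and 2.19, 1.97 and 2.04 at high density. Both ligands were far below the background level in all 6 cultures and their groups overlapped. Limma gave a log2 fold change of 0.11 (95% CI −0.16 to 0.37, adjusted p = 0.564) for AREG and of −0.12 (95% CI −0.32 to 0.08, adjusted p = 0.387) for BTC. With both sides below background no fold change can be stated, and neither AREG nor BTC was detectable on these arrays at either density.

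In the RefSeq annotation (assembly ARS-UCD2.0) EPGN, EREG, AREG and BTC follow one another as protein-coding neighbours. EREG was thus the called member of a gene cluster in which its neighbours AREG and BTC stayed below background. EPGN was not analysed here.

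**Figure D2:**
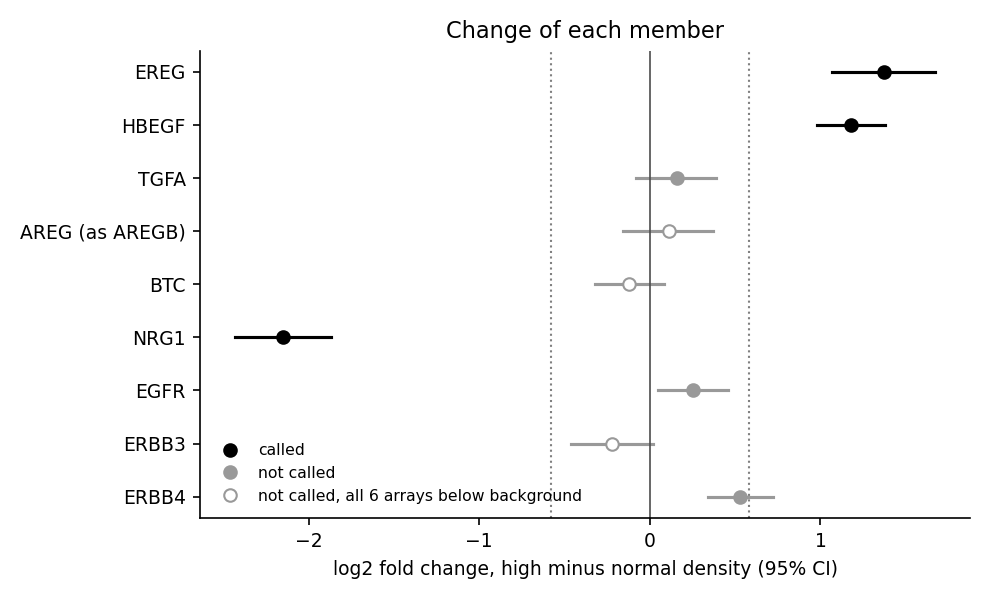
Log2 fold change of each member (horizontal axis, high minus normal density) with its 95% CI from limma. Black points are called, grey points are not, open points were below background on all 6 arrays, and dotted lines mark a fold change of 1.5. EREG and HBEGF lie to the right of the dotted lines, NRG1 to the left, and the CI of ERBB4 crosses the line on the right.

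EGFR is the receptor for EREG, HBEGF and TGFA. It was above background in every culture, with signals (12798175) of 8.18, 8.24 and 8.08 at normal density and 8.52, 8.29 and 8.46 at high density. The groups did not overlap, but the gap of 0.05 was smaller than the range within either group. The log2 fold change was 0.25 (SE 0.09, 95% CI 0.05 to 0.46) and EGFR was not called (limma's adjusted p = 0.0890). High density replicate 2 was the lowest of its group, and without it the log2 fold change was 0.32 with an adjusted p of 0.0251, still below the fold change threshold.

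ERBB4 binds NRG1 as well as EREG, HBEGF and BTC. Its signals (12782135) were 5.66, 5.56 and 5.53 at normal density and 6.19, 6.15 and 6.0 at high density. Every high density culture was higher, by a gap of 0.34 that exceeded the ranges of 0.13 and 0.20 within the groups. The log2 fold change of 0.53 (SE 0.08, 95% CI 0.34 to 0.72, limma's adjusted p = 0.00409) passed the FDR threshold, as did 19.1% of all transcript clusters, but not the fold change threshold, which is 0.58 on this scale. ERBB4 is therefore the member nearest to a call. It was called when high density replicate 3, the lowest of its group, was left out, with a log2 fold change of 0.59.

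ERBB3, the other NRG1 receptor, was below background in all 6 cultures, with signals (12869248) of 3.22, 3.13 and 3.02 at normal density and 3.07, 2.92 and 2.74 at high density. The groups overlapped, and the log2 fold change of −0.22 was not called (limma's adjusted p = 0.191). Of the receptors measured, EGFR and ERBB4 were therefore above background at both densities and ERBB3 at neither.

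**Figure D3:**
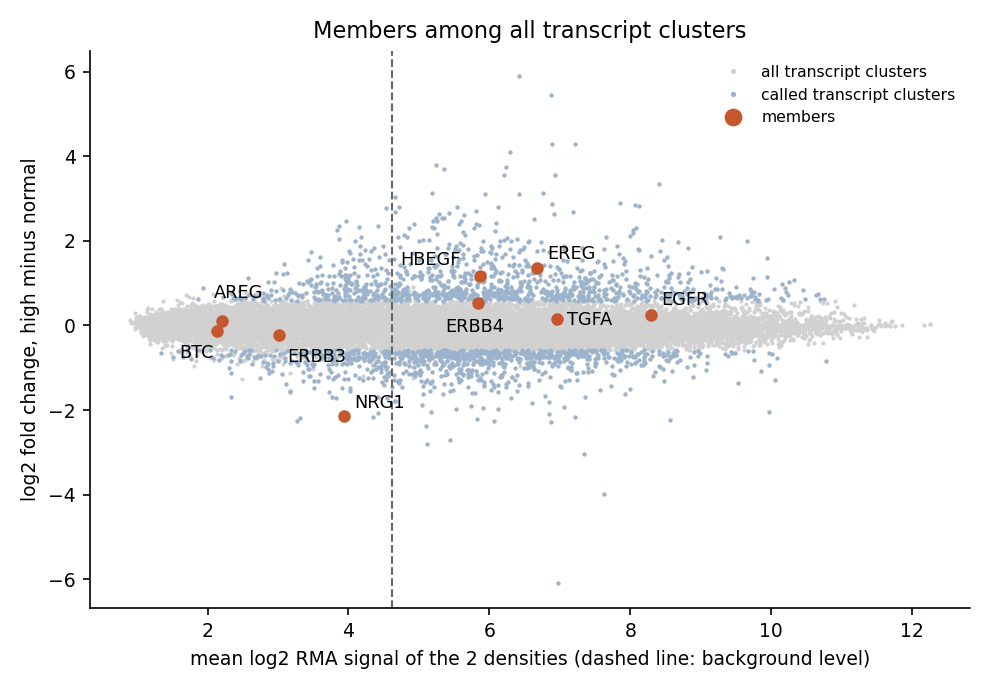
Log2 fold change (vertical axis) against the mean log2 RMA signal of the densities (horizontal axis) for all 26773 transcript clusters, with called ones in blue, members in orange and the background level as a dashed line. EREG and HBEGF lie among the called rises above background, NRG1 among the called falls, and the other members lie within the band of uncalled transcript clusters.

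The spread of the members among cultures of a density was between 0.07 and 0.26 at normal density and between 0.02 and 0.18 at high density (SD, n = 3), and 6 of the 9 members, AREG included, had the larger SD at high density. Over all transcript clusters the median SD was 0.08 and 0.13. High density replicate 2, the culture that stood apart over the whole table, lay outside the range of the other high density cultures toward normal density in 2 members, TGFA and EGFR, and in none of the called ones. Without it the log2 fold changes of EREG and NRG1 were 1.36 and −2.10.

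For each called member, the transcript clusters with the most similar signals over the 6 arrays were found by the Euclidean distance of signals centred on their own mean. This is a description with no test. The nearest to EREG were RIMBP2, a synaptic scaffold gene, at a distance of 0.19 and ADAMTS12, a secreted metalloproteinase, at 0.23, where EREG itself lay 1.72 from a flat profile. Their log2 fold changes as measured were 1.41 and 1.39. ADAMTS12 was below background in all normal density cultures, with means of 3.38 at normal and 4.77 at high density. The nearest to HBEGF were the cation channel gene TRPM2 at 0.09 and SDC4, a heparan sulfate proteoglycan of the cell surface, at 0.11, against 1.46 for HBEGF from a flat profile. SDC4 rose from 9.17 to 10.30, whereas TRPM2 was below background in all normal density cultures, with a mean of 4.47. The nearest to NRG1 were the amino acid transporter gene SLC43A2 at 0.29 and the retinol dehydrogenase gene DHRS9 at 0.34, against 2.65 for NRG1 itself. Unlike NRG1, both were above background at high density, with 7.44 and 4.93.

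Other genes of the pathway were read from lists of its steps. Of 85 genes listed, 81 were found, and 9 rose and 2 fell, which is 13.6% called against 7.49% of the table. The latter share includes the 51.2% of all transcript clusters with both group means at or below background. The comparison therefore does not show more calls than among genes above background, which was not tested. With the filter on low signals, 10 pathway genes were called, among 1695 called transcript clusters. Most of the pathway genes did not pass the thresholds, and the calls stood mainly among shedding genes and EGF-responsive genes.

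Of the other ligands of the family only EGF and NRG3 were found. Both were below background at both densities and not called, with adjusted p of 0.696 and 0.0549 from limma. EGF, the founding ligand of the family, had signals between 2.09 and 2.25 over the 6 cultures, all below the background level.

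Of 13 genes that take part in ligand shedding, 3 rose, 0 fell and 10 were not called, with a median log2 fold change of 0.03. In this list 23.1% were called, against 7.49% of the table, and all 13 genes had a group mean above background. The main sheddases showed no call, with a log2 fold change of 0.11 for ADAM17, which releases EREG, HBEGF, TGFA and AREG, and of −0.13 for ADAM10, which releases BTC. ADAM12, which can shed HBEGF, rose from 5.29 ± 0.11 to 6.86 ± 0.07 (SD, n = 3), with a difference in log2 signal of 1.58 (SE 0.08, adjusted p by limma = 4.07e-05). RHBDF2, an inactive rhomboid that guides ADAM17 to the cell surface, rose from 5.95 ± 0.09 to 7.14 ± 0.27, with a difference in log2 signal of 1.20 (SE 0.14, adjusted p by limma = 0.00111). TIMP3, a matrix-bound inhibitor of ADAM17, rose from 8.65 ± 0.07 to 9.99 ± 0.08, with a difference in log2 signal of 1.34 (SE 0.08, adjusted p by limma = 5.81e-05). An escort and an inhibitor of the same protease were thus both among the rises.

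Of 19 genes found for receptor restraint and turnover, 1 rose, 0 fell and 18 were not called, with a median log2 fold change of −0.03. The one called was ERRFI1, which encodes the EGFR and ERBB2 kinase inhibitor MIG6 and is itself induced by EGF signaling. Its signals were 6.34, 6.48 and 6.14 at normal density and 7.82, 7.46 and 7.70 at high density, with no overlap. The log2 fold change was 1.34 (SE 0.12, adjusted p by limma = 4.47e-04). That is 5.26% called, against 7.49% of the table, and all 19 genes had a group mean above background. At any fold change 8 of the 19 genes passed the FDR threshold, against 19.1% of all transcript clusters. Among them were LRIG1 and LRIG3, inhibitors of the receptors, with log2 fold changes of −0.31 and −0.43, and SOCS4, which promotes EGFR degradation, with −0.56 (adjusted p by limma = 0.01). The others beside ERRFI1 went both ways, PTPRJ and RNF41 with 0.40 and 0.28 and USP8 and STAM with −0.29 and −0.30. SOCS4 became called without normal density replicate 2 or high density replicate 2. The ubiquitin ligase genes CBL and CBLB passed neither threshold.

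Of 31 genes of the signal relay from the receptors through RAS to ERK and through PI3K to AKT, 1 fell, 0 rose and 30 were not called, with a median log2 fold change of −0.04. Thus 3.23% were called, against 7.49% of the table, and all 31 genes had a group mean above background. PIK3R1, a regulatory subunit of PI3K, fell from 10.39 ± 0.03 to 9.32 ± 0.09 (SD, n = 3), with a difference in log2 signal of −1.07 (SE 0.07, adjusted p by limma = 1.32e-04). MAP2K1, an ERK kinase, had a log2 fold change of 0.57 (limma's adjusted p = 0.00206), just under the fold change threshold, and was called without normal density replicate 1 or high density replicate 3.

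Of 16 EGF-responsive genes, 5 rose, 1 fell and 10 were not called, with a median log2 fold change of 0.03. The share called was 37.5%, against 7.49% of the table, and 13 of the 16 genes had a group mean above background. This share is a description only, since the list was chosen with earlier results of these data known. PTX3 and ADAMTS1 were also picked by the study from these samples. PTX3, a protein of the cumulus matrix, rose by 1.61 (SE 0.17), ADAMTS1, a protease of that matrix, by 0.92 (SE 0.10), SPRY4, a feedback inhibitor of ERK signaling, by 0.89 (SE 0.09) and EGR1, an immediate early transcription factor, by 0.73 (SE 0.08), all on the log2 scale and with adjusted p of 0.001 or less from limma. CCND1, which encodes cyclin D1, fell by 0.86 on the measured scale (SE 0.13, adjusted p by limma = 0.00448), from 5.37 to 4.5, the latter below background, with 1 of 3 high density cultures above it. HAS2, a hyaluronan synthase, was called as a rise, but its signals of 2.74 and 3.61 were below background at both densities, so no fold change is stated. This call was lost in 8 of the alternatives, among them the analysis of variance of the methods, the filter on low signals, and leaving out normal density replicate 1, normal density replicate 3 or high density replicate 3. Of the other cumulus expansion genes, PTGS2 had a log2 fold change of 0.33 (limma's adjusted p = 0.0939) and TNFAIP6 of −0.32 (limma's adjusted p = 0.151), and neither was called. FOS, MYC, SPRY2, IER3 and PHLDA1 were not called either. DUSP6, with a log2 fold change of −0.34 (limma's adjusted p = 0.0414), passed the FDR threshold but not the fold change threshold. ETV4 and ETV5 were below background in all 6 cultures and not called, although ETV4 passed the thresholds when high density replicate 2 was left out.

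**Figure D4:**
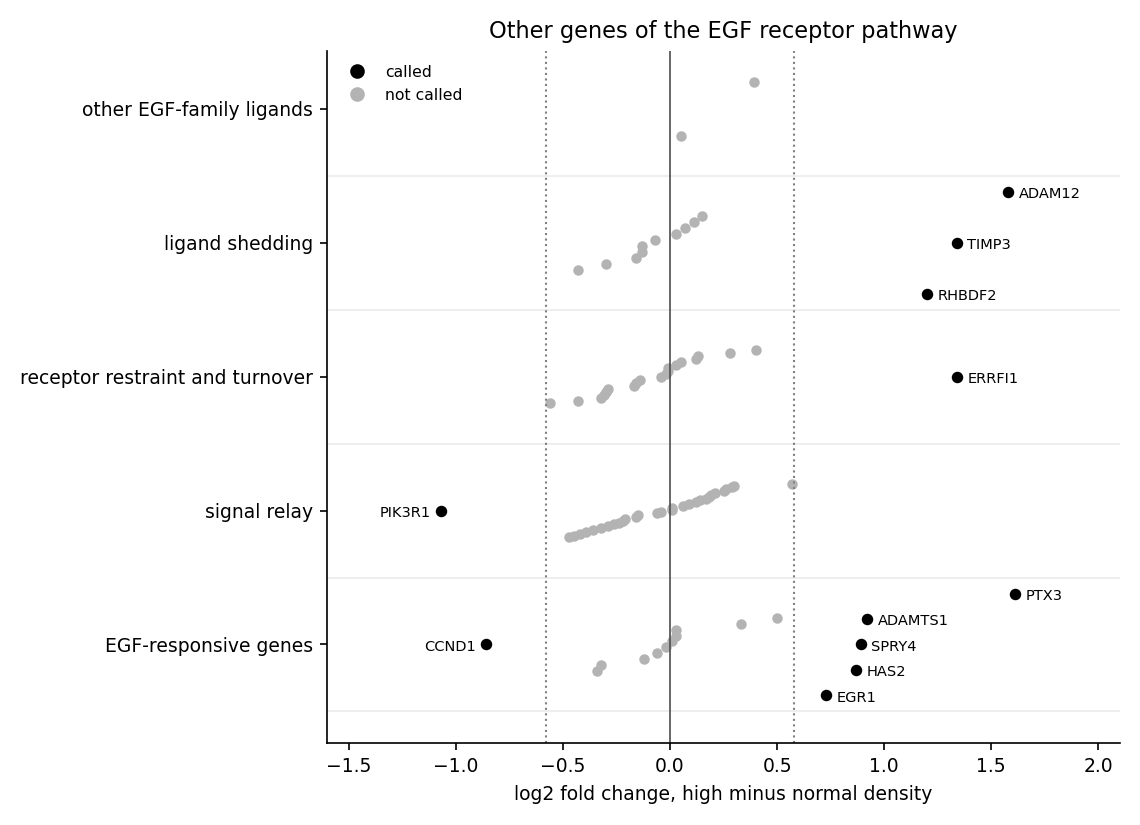
Log2 fold changes (horizontal axis, high minus normal density) of the other pathway genes, a row per list and a point per transcript cluster, black where called and grey where not, with dotted lines at a fold change of 1.5. The vertical place of a point within its row has no meaning. The 9 called rises lie in the shedding, restraint and EGF-responsive rows, and the called falls are PIK3R1 and CCND1.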

How the data were processed

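Total RNA of each of the 6 cultures was measured on its own array, an Affymetrix bovine whole-transcript design (Gene ST). The authors processed the scans in Affymetrix Expression Console with RMA (background reduction, normalization between arrays and gene-level summary), and the deposited values are log2 signals per transcript cluster and culture. No further normalization was applied. The genome build is not given in the sources used here, and scanner files were not used here, so the background correction was not varied.

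Groups and replicate numbers came from the sample labels. The 2 densities were compared by limma (version 3.58.1, R version 4.3.3), using lmFit and eBayes on all 6 arrays with no covariate and Benjamini-Hochberg adjustment over 26773 transcript clusters, after tests on simulated data. The thresholds are those of the methods, a fold change of 1.5 and an FDR of 0.05. A fold change is the difference of mean log2 signals. Precision is limited by the number of arrays. For 3 against 3 cultures an exact permutation test gives no p below 0.1. Named genes are all members, the called genes of each pathway list (at most 4 with the largest change, and those that a count of 5 or fewer rests on) and the 2 nearest transcript clusters of each called member. Other genes named, among them genes not called and markers, were chosen after their values were seen. The members and lists were chosen with earlier results of these data known, and NRG1, PTX3 and ADAMTS1 were also picked by the study from these samples. Older symbols were matched through RefSeq (AREGB, NRD1 and ERBB2IP). No sequence is shown. Figures were drawn with matplotlib 3.10.9. The alternatives were the methods' own test and its Welch version, other variance and weighting options of limma, the replicate number as a block, other scalings, filters and thresholds, and leaving out each culture. Counting AREG among the members through AREGB was added after the data were seen.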

Additional observations from a re-analysis of the deposited data

How the results depend on the processing

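The direction of each of the 9 members was the same under all alternatives tried. Between 3 and 4 of the exact members were called with each culture left out in turn, and 2 under Welch's form of the test in the methods, which lost EREG (log2 fold change 1.37, adjusted p = 0.0988). With AREG counted through AREGB, chosen after seeing the data, 3 were called. A filter on low signals left no value for AREG, BTC and ERBB3. With each culture left out, the log2 fold change was between 1.23 and 1.49 for EREG, 1.13 and 1.25 for HBEGF, −2.25 and −2.08 for NRG1, 0.49 and 0.59 for ERBB4, 0.20 and 0.32 for EGFR, 0.09 and 0.23 for TGFA, 0.03 and 0.21 for AREG, −0.18 and −0.07 for BTC and −0.30 and −0.13 for ERBB3. ERBB4 became called (0.53) at any fold change, and without high density replicate 3. EGFR, not called in any setting, had adjusted p between 0.0238, with array weights, and 1, with limma's treat. The called pathway genes numbered 11 as reported, 7 under Welch's form, which lost RHBDF2, HAS2, CCND1 and SPRY4, 5 with treat, which also lost ADAMTS1 and EGR1, and 29 at any fold change. Leaving out single cultures gave 10 to 13. The replicate number as a block left EREG at 1.37 (adjusted p = 0.00161), HBEGF at 1.18 (adjusted p = 0.00120) and NRG1 at −2.15 (adjusted p = 2.77e-04) and changed no call of a member. Same-numbered cultures had correlations of their deviations between −0.05 and 0.05, and differently numbered ones between −0.07 and 0.09. These values cannot tell whether cultures of the same number shared a cell pool. A background level at the 99th percentile of the control rows, 4.92, left the group means of 6 members above it, as before, and lowered the bound of NRG1 from 1.31-fold to 1.06-fold. At signals near or below background, a true change is understated.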

Other observations

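The genes next to the members in the RefSeq order were read as well, from a table in which 7.49% of the transcript clusters were called. The protein-coding neighbours of HBEGF, PFDN1 and SLC4A9, had log2 fold changes of 0.20 and −0.02 and were not called, and WRN, next to NRG1, had −0.01 (limma's adjusted p = 0.970). PARM1, on the other side of BTC from AREG, rose by 0.66 on the log2 scale, from 8.82 to 9.48 (limma's adjusted p = 7.35e-04), beside BTC, which stayed below background. The neighbours of ERBB4 were CPS1, below background at 2.51 and 2.48, and IKZF2, with a log2 fold change of 0.47 (limma's adjusted p = 0.0256) that did not reach the fold change threshold. FAM136A, next to TGFA, was called with −0.60 (limma's adjusted p = 0.0408), whereas ADD2, on the other side of TGFA, was not called with 0.35. LANCL2 and SEC61G, next to EGFR, had log2 fold changes of 0 and 0.25 and were not called. Nor was PA2G4, next to ERBB3, with −0.31. RPS26, next to ERBB3, has 3 transcript clusters, of which only the first in the deposited order is given here. It was called (−1.08, limma's adjusted p = 0.00244), with a mean of 4.28 at high density that was below background. A ribosomal protein gene can share signal with near-identical copies.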
